A study of Mus musculus with 7 samples.

Results

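A set of genes that mark neurons making dopamine, serotonin or noradrenaline were followed across 7 hypothalamus arrays. The 10 listed genes were Tph2, Slc6a4, Fev, Th, Ddc, Slc6a3, Slc18a2, Dbh, Gch1 and Maob, and a gene's probes were those that the array platform's annotation gives its symbol. Of these, 9 had a probe, among 16593 named genes with a probe, and they had 11 probes in all. Fev had none and therefore has no value here. A probe was called detected in an array when its detection p-value, which compares it with the negative controls of that array, was under 0.05. By this measure 8 of the 9 genes were detected in at least 1 array. A probe was tested when it was detected in at least 2 arrays, which 7 genes passed. The genes were chosen by their signals in these same arrays, in which several had been seen to differ from mouse to mouse, so their levels and the way they vary together are given as a description without a test.

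All 7 male C57BL/6 mice carried the biglycan (Bgn) knockout and were 13 weeks old when the hypothalamus was taken. The DHA group (Bgn_KO_DHA, 5 arrays, replicates 1 to 5) had eaten, for about 6 weeks, a diet enriched with flaxseed oil (0.5%) and with the oil of DHA capsules (1.2%). DHA, docosahexaenoic acid, is an omega-3 fatty acid of neuronal membranes. The untreated group (Bgn_KO, 2 arrays, replicates 1 and 3) was fed the chow without these oils, and a further untreated sample was left out by the submitters as an outlier. There was no wild-type group, and no group received flaxseed oil or another oil alone, so DHA cannot be told apart from added oil. Signals below are log2 values after background correction and quantile normalization unless called unnormalized. They rank arrays for a probe and do not rank probes against each other.

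Biglycan is a proteoglycan of the extracellular matrix, and its only probe (ILMN_2964042) was detected in all 7 arrays. It had log2 signals of 8.03 to 8.31 in the DHA arrays and 8.71 and 8.40 in the untreated arrays. Its place relative to the deletion is unknown here, so it checks no genotype. The DHA arrays detected 14251 to 14534 probes and the untreated arrays 13970 and 13873, of 25697. Of 15 genes of hypothalamic peptide neurons with a probe, 12 were detected in at least 1 array. Pmch, the precursor of melanin-concentrating hormone, was at 14.56 to 14.65 in the DHA arrays and at 14.67 and 14.65 in the untreated arrays. Crh, Otp and Sim1 of that list were detected in no array. DHA replicate 3 stood apart in several of the genes described here, and main results of the listed monoamine genes are given with and without it.

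Monoamine neurons share a common set of proteins. Dopamine is made from tyrosine by tyrosine hydroxylase (Th) and aromatic amino acid decarboxylase (Ddc), and serotonin from tryptophan by tryptophan hydroxylase (Tph2 in neurons) and the same decarboxylase. Both hydroxylases need tetrahydrobiopterin, whose synthesis starts with GTP cyclohydrolase (Gch1). The vesicular transporter Slc18a2 loads monoamines into synaptic vesicles, Slc6a3 and Slc6a4 take dopamine and serotonin back up, and monoamine oxidases such as Maob break monoamines down. Serotonin cell bodies sit in the raphe nuclei of the brainstem. The hypothalamus receives their axons and has dopamine neurons of its own, while the dopamine neurons of the ventral midbrain lie directly behind it.

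RefSeq start sites were available for 9 of the 10 genes, and the 250 bases before each start were read on build GRCm38.p6 for 10 starts, Ddc having a pair. Windows are shown for genes whose signal differed most between arrays or which shared their lowest and highest arrays (Th, Ddc, Slc6a3 and Slc18a2). Those of the serotonin genes Tph2 and Slc6a4 are shown too. Searched on both strands were the cyclic AMP response element TGACGTCA and its core TGACG, the Nurr1 element AAAGGTCA, the ETS core CCGGAA bound by factors such as Fev, and the TATA box TATAAA. Capitals mark a match, and each line reads 5′ to 3′ on the gene's own strand, ending at the base before the start site. The start used for Slc6a3 lies inside the span RefSeq gives the gene.
Th, chr7:142899996-142900245, minus strand: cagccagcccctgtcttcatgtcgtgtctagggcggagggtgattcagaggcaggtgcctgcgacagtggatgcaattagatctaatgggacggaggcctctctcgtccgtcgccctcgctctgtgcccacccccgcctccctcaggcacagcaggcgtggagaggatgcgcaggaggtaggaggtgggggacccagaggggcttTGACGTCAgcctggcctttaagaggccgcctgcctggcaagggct
Ddc, first start, chr11:11898145-11898394, minus strand: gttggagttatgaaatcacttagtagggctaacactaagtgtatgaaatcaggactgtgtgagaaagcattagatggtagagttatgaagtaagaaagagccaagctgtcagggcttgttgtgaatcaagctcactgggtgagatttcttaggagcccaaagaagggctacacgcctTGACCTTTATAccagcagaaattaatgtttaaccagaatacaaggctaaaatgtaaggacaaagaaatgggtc
Slc6a3, chr13:73536497-73536746, plus strand: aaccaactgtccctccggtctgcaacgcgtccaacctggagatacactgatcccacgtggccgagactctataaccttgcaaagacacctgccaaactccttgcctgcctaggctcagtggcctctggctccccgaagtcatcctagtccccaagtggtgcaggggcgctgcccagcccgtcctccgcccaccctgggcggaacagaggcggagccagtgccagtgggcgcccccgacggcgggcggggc
Slc18a2, chr19:59260628-59260877, plus strand: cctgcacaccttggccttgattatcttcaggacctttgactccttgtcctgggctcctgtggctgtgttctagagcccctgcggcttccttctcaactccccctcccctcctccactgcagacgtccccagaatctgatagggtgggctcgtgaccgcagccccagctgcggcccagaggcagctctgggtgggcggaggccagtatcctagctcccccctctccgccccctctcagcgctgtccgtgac
Tph2, chr10:115185023-115185272, minus strand: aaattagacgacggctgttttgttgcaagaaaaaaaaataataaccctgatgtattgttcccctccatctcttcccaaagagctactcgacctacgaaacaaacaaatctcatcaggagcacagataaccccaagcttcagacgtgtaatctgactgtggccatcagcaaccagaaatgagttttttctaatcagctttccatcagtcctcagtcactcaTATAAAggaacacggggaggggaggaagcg
Slc6a4, chr11:76998347-76998596, plus strand: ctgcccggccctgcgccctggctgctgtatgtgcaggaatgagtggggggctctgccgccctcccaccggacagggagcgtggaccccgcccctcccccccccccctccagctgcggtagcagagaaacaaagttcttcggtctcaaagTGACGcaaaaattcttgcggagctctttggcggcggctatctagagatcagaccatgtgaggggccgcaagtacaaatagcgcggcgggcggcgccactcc
The Th window holds the full cyclic AMP response element at positions -45 to -38 from the start, and as the element is its own reverse complement, it contains the core on both strands. The first Ddc window holds a Nurr1 element on the opposite strand at -73 to -66, which overlaps a TATA box on that strand at -68 to -63. In Tph2 a TATA box lies at -30 to -25, and in Slc6a4 a core TGACG lies at -101 to -97. Dbh holds a core TGACG, and Gch1 a core TGACG and a TATA box. None of the 5 motifs is in the windows of Slc6a3 and Slc18a2, nor in those of Fev and the other Ddc start. Of 32851 mouse windows of the same length, 1.55% hold TGACGTCA, 17.8% TGACG, 1.34% AAAGGTCA, 12.0% CCGGAA and 12.4% TATAAA. No data on binding to these windows were used, and the matches are a description of the letters.

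The serotonin genes were near the detection limit in most arrays and far above it in DHA replicate 3. Tph2 (ILMN_2460179) had log2 signals of 5.38, 5.48, 9.32, 6.33 and 5.73 in DHA replicates 1 to 5, against 5.42 and 5.09 in untreated replicates 1 and 3. DHA replicate 3 was highest, DHA replicate 4 came next, and the other 5 arrays lay within a narrow band that both groups share. Its unnormalized signal was 767 in DHA replicate 3 and 176 to 215 in the other DHA arrays, against 164 and 162 in the untreated arrays. The probe was detected in 5 of 5 DHA arrays and in 1 of 2 untreated arrays, the exception being untreated replicate 3 with a detection p of 0.0777. After background correction Tph2 differed 18.8-fold between the highest array and the lowest, untreated replicate 3, where it was undetected. The size of this fold depends on the background correction. In the authors' normalized values these arrays were at 747 and 162. The SD of Tph2 over the 7 arrays, 1.47 log2, ranked 35 among 15284 tested probes. In bulk tissue, a smaller number of cells of a type and less RNA per cell cannot be told apart.

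Slc6a4 (ILMN_2713714), the serotonin transporter, had log2 signals of 4.38, 4.49, 6.44, 4.86 and 4.38 in DHA replicates 1 to 5, against 4.65 and 4.44 in untreated replicates 1 and 3. It was detected in DHA replicate 3 alone, with an unnormalized signal of 218, and in neither untreated array. DHA replicate 4, the second highest, had a detection p of 0.114. With 1 array of 7 above background the probe was not tested, and no fold between the diets is given.

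The dopamine genes were detected in every array, and they shared their 3 lowest arrays and their highest array. Slc6a3 (ILMN_2676852), the dopamine transporter, had log2 signals of 7.73, 7.57, 11.48, 9.52 and 9.81 in DHA replicates 1 to 5, against 7.57 and 10.41 in untreated replicates 1 and 3. The arrays fell into separate ranges, with DHA replicates 1 and 2 and untreated replicate 1 at or under 7.73 and the other 4 at or above 9.52, a gap of 3.44-fold. Both diets had arrays on either side of it. Unnormalized, the signal was 378, 322, 2928, 913 and 997 in DHA replicates 1 to 5 and 296 and 1406 in untreated replicates 1 and 3. The untreated arrays alone differed 7.14-fold, and all 7 arrays spanned 15.1-fold. Its SD of 1.56 log2 ranked 29 among the 15284 tested probes.

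Th (ILMN_1222014) had log2 signals of 8.65, 8.58, 9.87, 8.98 and 8.74 in DHA replicates 1 to 5, against 8.43 and 9.15 in untreated replicates 1 and 3. The same arrays were low and the same array was highest, over a span of 2.71-fold. Ddc (ILMN_2628647) had 10.75, 10.74, 11.49, 11.02 and 11.02 in DHA replicates 1 to 5, against 10.61 and 11.35 in untreated replicates 1 and 3. Its span was 1.83-fold, with DHA replicate 3 and untreated replicate 3 at the top. Slc18a2 (ILMN_2739303) had 6.30, 6.27, 7.09, 6.82 and 6.78 in DHA replicates 1 to 5, against 6.20 and 6.44 in untreated replicates 1 and 3. DHA replicates 4 and 5 were above untreated replicate 3 here, while in Th, Ddc and Slc6a3 untreated replicate 3 was the second highest array. Th, Ddc and Slc18a2 are used by hypothalamic as well as midbrain dopamine neurons.

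Dbh (ILMN_2669234), which turns dopamine into noradrenaline and marks noradrenergic cell bodies, was detected in 0 of 7 arrays. Its signals of 4.57 to 4.82 in the DHA arrays and of 4.49 and 4.53 in the untreated arrays lay below the detection limit, and no difference is drawn from them. Gch1 was measured by a pair of probes. The brighter (ILMN_2606295) had 8.14, 7.87, 8.40, 8.16 and 7.97 in DHA replicates 1 to 5, against 7.44 and 8.14 in untreated replicates 1 and 3. Untreated replicate 1 was the lowest and DHA replicate 3 the highest. The dimmer probe (ILMN_2753029) ran between 6.44 and 7.19 in the DHA arrays, with 6.46 and 6.85 in the untreated arrays, and was highest in DHA replicate 4. Maob (ILMN_2719069), an outer mitochondrial membrane enzyme found in glia and in serotonin and histamine neurons, varied least. It had 9.96, 9.68, 10.04, 9.84 and 9.74 in DHA replicates 1 to 5, against 9.80 and 9.91 in untreated replicates 1 and 3, a span of 1.28-fold. A further Maob probe (ILMN_1258219) was detected in no array.

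**Figure D1:**
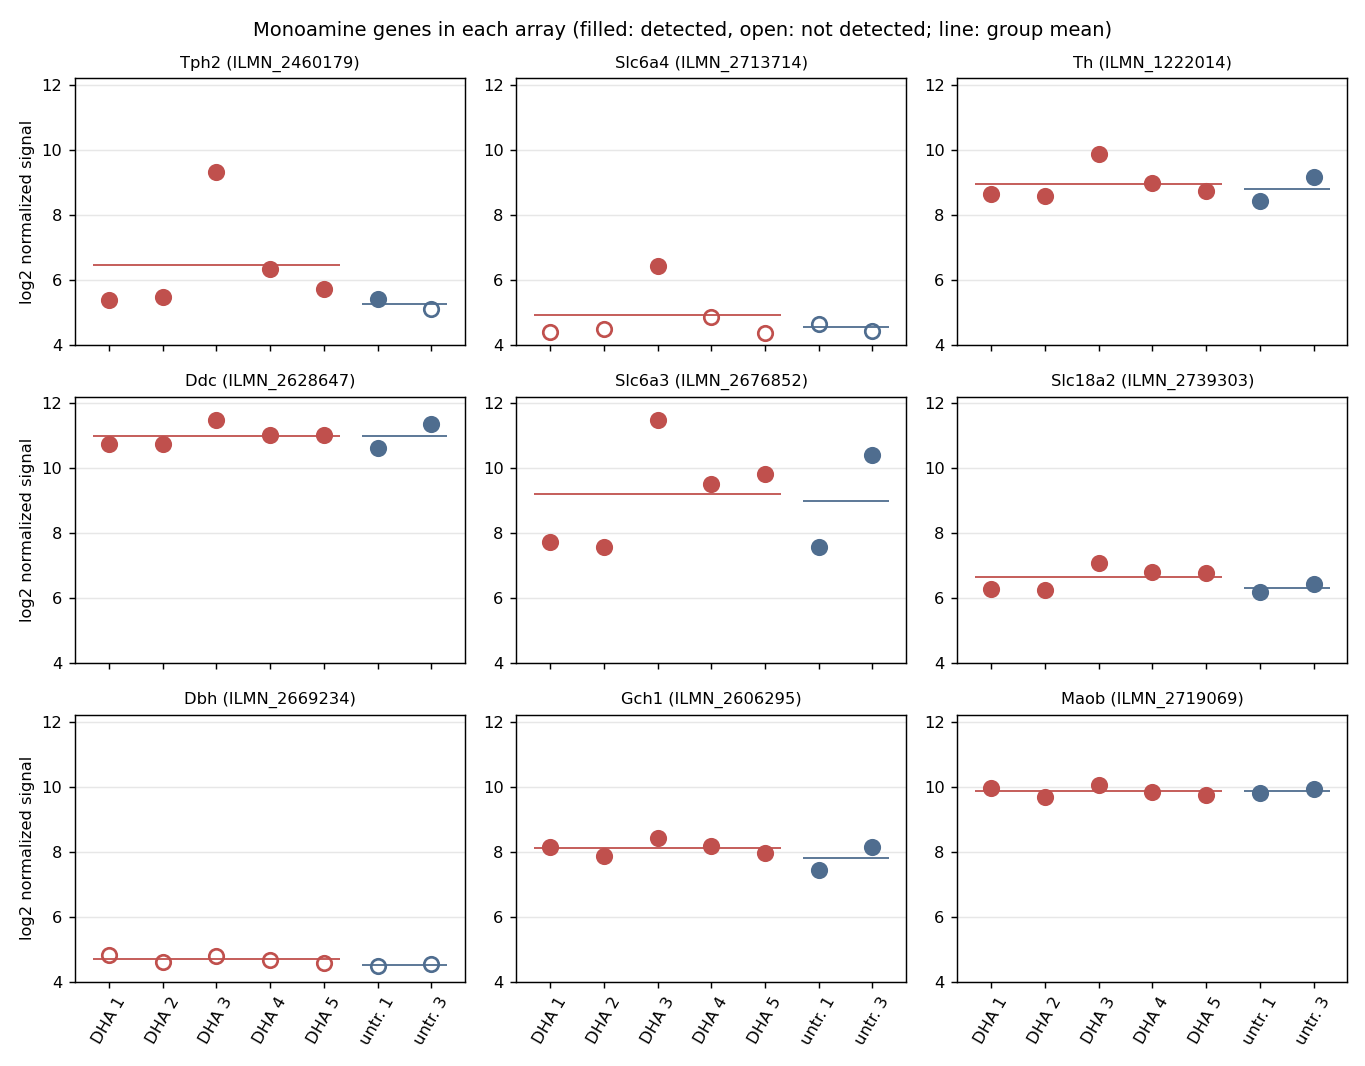
Log2 normalized signal (vertical axis) of the brightest probe of each of the 9 genes with a probe, in DHA replicates 1 to 5 (red) and untreated replicates 1 and 3 (blue); filled points are detected, open points are not, and lines are group means. Tph2 and Slc6a4 stand out in DHA replicate 3, Slc6a3 splits the arrays of both diets into a low and a high range, and Dbh is undetected throughout.

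Whether the oil diet changed these genes is the comparison the groups allow, and none of them passed it. In limma, 0 of the 7 tested genes had an adjusted p under 0.05, where 0% of the 15284 tested probes did, and the adjusted p of the 8 tested probes ran from 0.628 to 0.99. At an unadjusted p under 0.05 there were 0 of 7, where 10.3% of all tested probes passed, and the smallest adjusted p of any probe was 0.0968. The signals of the diets overlapped for all 8 tested probes, while 17% of the tested probes had groups that did not overlap, 7.89% with DHA higher and 9.06% with DHA lower. The mean was higher with DHA in 6 of the 7 genes, where 47% of tested probes were, with a median log2 difference of 0.23 over the 7 genes and -0.01 over all tested probes. This count rested on single arrays: 3 of 7 were higher with DHA without DHA replicate 3, and 2 of 7 without untreated replicate 1. In 6 of the 7 the difference was smaller than the SD of the DHA arrays.

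Tph2 averaged 6.45 ± 1.65 in the DHA arrays (SD, n = 5) and 5.26 ± 0.23 in the untreated arrays (SD, n = 2). The limma difference was 1.19 log2 (SE 0.99, 95% interval -1.10 to 3.48, adjusted p 0.71). Without DHA replicate 3 it was 0.47 (limma adjusted p 0.601), and without background correction it was 0.55. Slc6a3 averaged 9.22 ± 1.62 in the DHA arrays (SD, n = 5) and 8.99 ± 2.01 in the untreated arrays (SD, n = 2), a difference of 0.23 log2 (SE 1.14, 95% interval -2.41 to 2.87, limma adjusted p 0.959). Its sign turned to -0.33 without DHA replicate 3 and to -1.18 without untreated replicate 1. The interval spans more than 2 log2 in either direction, so a sizeable difference could not be detected with these arrays.

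The remaining probes had narrower intervals. Slc18a2 differed by 0.33 log2 (95% interval -0.21 to 0.87), and by 0.22 without DHA replicate 3, 0.21 without untreated replicate 1 and 0.14 without background correction. Gch1 differed by 0.32 on its brighter probe (95% interval -0.16 to 0.80) and by 0.22 on its dimmer one, which was at 0.03 without untreated replicate 1, 0.41 without untreated replicate 3, 0.14 without DHA replicate 4 and 0.10 without background correction. Th differed by 0.17 (95% interval -0.66 to 1.003), and turned to -0.06 without DHA replicate 3 and -0.19 without untreated replicate 1. Ddc differed by 0.02 (95% interval -0.56 to 0.60), with -0.10 and -0.35 without those arrays. Gch1 on its brighter probe was at -0.03 without untreated replicate 1 and 0.67 without untreated replicate 3. Maob differed by -0.005 (95% interval -0.28 to 0.27), the narrowest of the set.

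**Figure D2:**
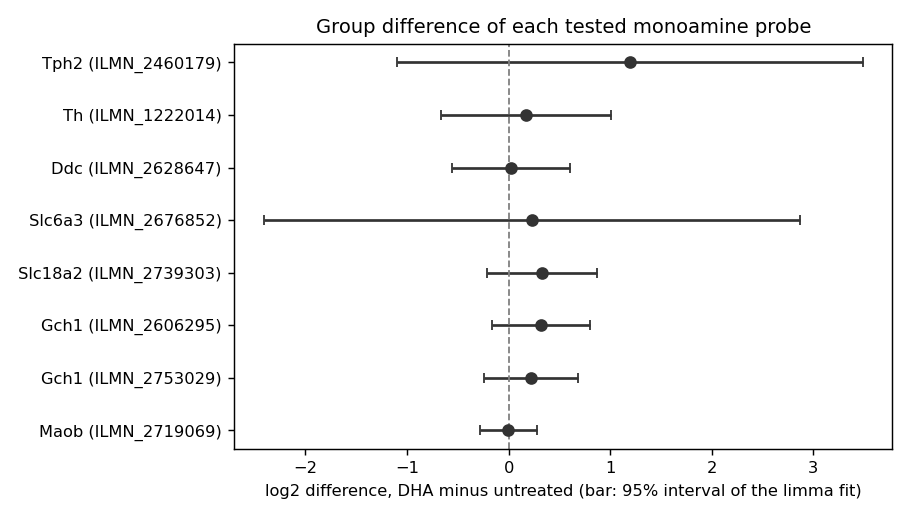
Difference in log2 normalized signal, DHA minus untreated (horizontal axis), for the 8 tested probes of the 7 genes; points are limma estimates and bars their 95% intervals. Every interval crosses 0, and those of Tph2 and Slc6a3 are the widest.

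The tested genes shared part of their variation between arrays. All 7 tested genes were highest in DHA replicate 3, which held the highest value of 14.4% of all tested probes. The 3 lowest arrays of Slc6a3 were also the 3 lowest of Th, Ddc and Slc18a2, 3 of the 6 other tested genes on their brightest probe. Of the other 15283 tested probes, 340 (2.22%) had these 3 lowest arrays, a background from which nothing is read, since the genes were chosen for how they vary in these arrays. Among the remaining members, the dimmer Gch1 probe had the same 3 lowest arrays and the brighter one did not, nor did Tph2 and Maob. Because the arrays fall into separate ranges in Slc6a3, no value of a correlation with it is given. DHA replicate 1, low in Slc6a3, was the brightest array before normalization with a mean unnormalized signal of 862, and untreated replicate 1, low as well, was the dimmest with 755.

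Across the 7 arrays Th and Ddc had Pearson's r of 0.927 and Spearman's rho of 1, and r was 0.952 without DHA replicate 3 and 0.894 without the 2 arrays farthest from the median of Th. Th and Slc18a2 had r of 0.798 and rho of 0.893, with r of 0.559 without DHA replicate 3. Th and Gch1 had r of 0.798 and rho of 0.929, with r of 0.758 without that array. Tph2 and Slc6a4 had r of 0.982 but rho of 0.571, with r of 0.714 without DHA replicate 3 and -0.118 without DHA replicates 3 and 4. As Slc6a4 was detected in DHA replicate 3 alone, its values without that array rest on undetected signals, and its rho largely does. Tph2 and Th had r of 0.851 and rho of 0.357, with r of 0.107 without DHA replicate 3. Tph2 and Slc18a2 had r of 0.804 and rho of 0.679, with r of 0.736 without that array and 0.476 without DHA replicates 3 and 4. Over the 21 pairs that leave out Slc6a3, r ran from 0.385 to 0.982 with a median of 0.715, and without DHA replicate 3 from -0.265 to 0.952 with a median of 0.282. These pairs share the same 7 arrays and their normalization, and those with Slc6a4 rest largely on undetected signals.

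**Figure D3:**
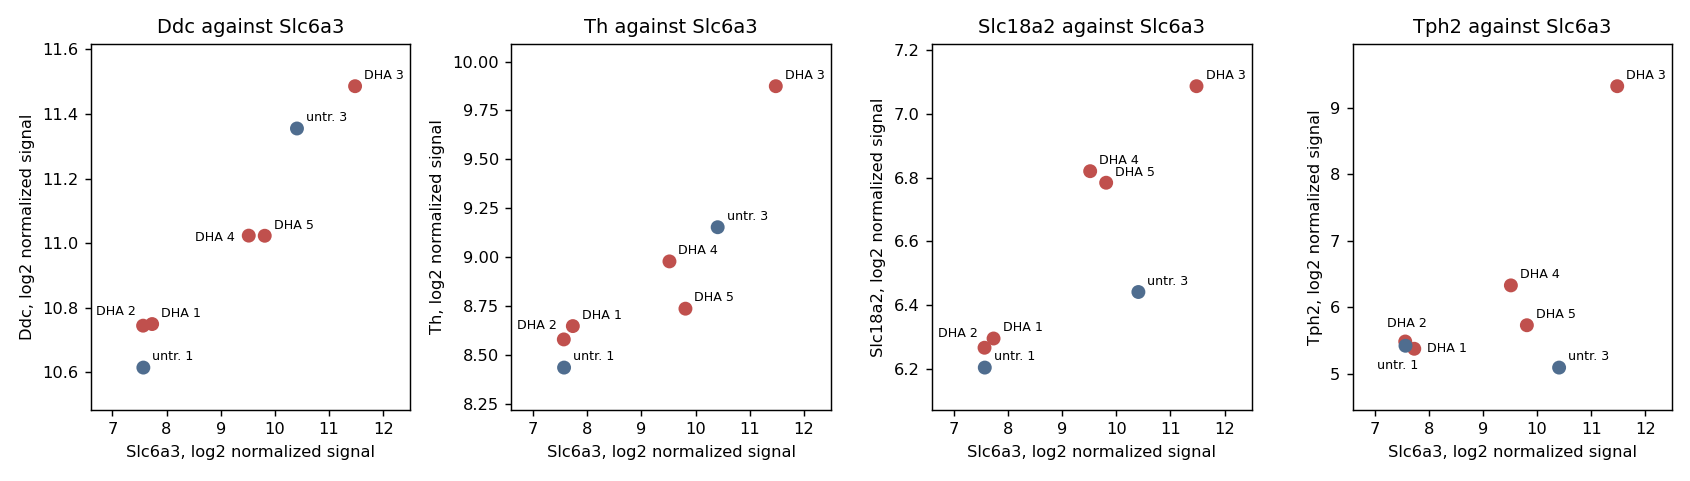
Log2 normalized signal of Ddc, Th, Slc18a2 and Tph2 (vertical axes) against that of Slc6a3 (horizontal axes), 1 point for each DHA array (red) and untreated array (blue). DHA replicates 1 and 2 and untreated replicate 1 are lowest for Ddc, Th and Slc18a2 as for Slc6a3, while Tph2 is low in untreated replicate 3, where Slc6a3 is at 10.41.

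Leaving out the members themselves, the named genes that followed Tph2 most closely over the 7 arrays, among tested probes with an SD of at least 0.3, were Myl1 (r 0.983, rho 0.929), Ifit3 (r 0.957, rho 0.821), Nkx6-1 (r 0.949, rho 0.607), Ret (r 0.94, rho 0.393) and Ucn (r 0.937, rho 0.393). Myl1 encodes a myosin light chain, Ifit3 an interferon-induced protein, Nkx6-1 a homeodomain factor, Ret the receptor of the GDNF family and Ucn the peptide urocortin. Without DHA replicate 3 their r was 0.841, 0.746, 0.358, 0.699 and 0.852 in that order. Ucn (ILMN_2834808) had log2 signals of 4.64, 4.63, 8.48, 6.81 and 4.53 in DHA replicates 1 to 5, against 4.52 and 4.67 in untreated replicates 1 and 3. It was detected in DHA replicates 3 and 4 alone, the pair of arrays in which Tph2 was highest. Ucn was chosen for its likeness to Tph2 and was tested only through this pair of arrays, so no fold between the diets is given. Without DHA replicate 3 its DHA mean was 5.16. That lay under 5.22, the mean of the lowest signals detected in the untreated arrays. Further probes of Myl1 (ILMN_2694907) and Ret (ILMN_2683393) were detected in no array, while all 3 Ifit3 probes were highest in DHA replicate 3.

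Th was followed most closely by Fam126a (r 0.969, rho 0.964), Chrna6 (r 0.953, rho 0.964), Usp18 (r 0.937, rho 0.75), Amph (r 0.935, rho 0.964) and En1 (r 0.93, rho 0.893). Without DHA replicate 3 their r was 0.911, 0.938, 0.858, 0.863 and 0.756 in that order. Chrna6 encodes a nicotinic receptor subunit typical of dopamine neurons, and En1 a homeodomain factor of midbrain dopamine neurons. Usp18 is an interferon-induced protease, and Amph encodes amphiphysin, which acts in synaptic vesicle endocytosis. The Chrna6 probe (ILMN_2732438) had 5.29, 5.00, 7.12, 5.90 and 5.91 in DHA replicates 1 to 5, against 4.70 and 6.31 in untreated replicates 1 and 3. Its other probe (ILMN_2732437) was also highest in DHA replicate 3, at 7.59, and was at 4.65 to 6.04 in the other DHA arrays and at 5.43 and 6.46 in the untreated ones. En1 (ILMN_3163581) had 5.22, 4.59, 6.94, 4.99 and 5.52 in DHA replicates 1 to 5, against 4.48 and 5.78 in untreated replicates 1 and 3. Untreated replicate 3 was second to DHA replicate 3 in all 3 probes, as in Th. The other Amph probes were not highest in DHA replicate 3, and the brightest (ILMN_2842843) was nearly level at 11.02 to 11.25 in the DHA arrays and 11.19 and 11.00 in the untreated arrays. The Usp18 probe that followed Th (ILMN_3054914) was not detected in every array. The other Usp18 probes (ILMN_2433990 and ILMN_3131679) were, and were also highest in DHA replicate 3. In these, untreated replicate 3 was at 6.00 and 6.99, under every DHA array, while in Th it was second highest. The same search around Slc6a3, added after its values were seen and also leaving out the members, gave Chrna6, Amph, Cacna1b, Tub and Pi4kb. It too ranks genes by r, here with a gene whose arrays fall into separate ranges, so nothing is read from it. None of these probes was detected in every array.

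Genes that mark the cell bodies of other monoamine neuron groups were read in the same arrays. Of 16 listed genes of midbrain dopamine neurons, 12 were detected in at least 1 array. Pitx3, a factor of these neurons, was detected in none, nor were Foxa2, Gucy2c and Calb1. Of the 11 detected genes other than Slc6a3, 9 were highest in DHA replicate 3, where 14.4% of all tested probes were. The summed normalized signal of the list without Slc6a3 was 14677 to 20125 in the DHA arrays, with DHA replicate 3 at the top, and 18881 and 15966 in the untreated arrays. The sum weighs bright genes most, and Cplx1 was the brightest, at 13.48 to 13.88 in the DHA arrays and 13.85 and 13.51 in the untreated arrays. The mean log2 signal of the list was 6.76 to 7.72 in the DHA arrays and 7.08 and 7.21 in the untreated arrays. The nicotinic subunit Chrnb3 (ILMN_1227122), for instance, had 5.11, 4.42, 6.53, 5.27 and 5.49 in DHA replicates 1 to 5, against 4.75 and 5.46 in untreated replicates 1 and 3. A further Chrnb3 probe (ILMN_2689381) was also highest in DHA replicate 3, at 5.65, and the other (ILMN_3163270) was detected in no array. Other genes of the list ran otherwise. Slc10a4 (ILMN_1251845) was highest in DHA replicate 3, at 9.13, but next in untreated replicate 1, at 8.67, where Slc6a3 was low. Drd2 was highest in untreated replicate 1, at 8.10. Sncg (ILMN_2598478) was at 10.86 to 11.12 in the DHA arrays and at 11.21 and 11.32 in the untreated arrays. How far this list accounts for the dopamine genes was not tested.

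Of 15 listed genes of serotonin raphe neurons, 13 had a probe and 10 were detected in at least 1 array, while the raphe factor Lmx1b and the hindbrain genes Hoxb2 and Hoxa2 were not. Of the 8 detected genes other than Tph2 and Slc6a4, 4 were highest in DHA replicate 3, where 14.4% of all tested probes were. Their list sum, undetected genes included, was 2254 to 2983 in the DHA arrays, with DHA replicate 3 at the top, and 2564 and 2644 in the untreated arrays. This sum too weighs bright genes most. Crhbp was the brightest, at 10.61 to 10.88 in the DHA arrays and 10.74 and 10.88 in the untreated arrays. Gata3, a factor of raphe serotonin neurons, was at 5.14, 4.52, 6.00, 4.49 and 4.55 in DHA replicates 1 to 5, against 4.61 and 4.84 in untreated replicates 1 and 3. It was detected in 2 of 5 DHA arrays and in neither untreated array. En2, a midbrain and hindbrain factor, was at 6.20 in DHA replicate 3, at 4.64 to 5.45 in the other DHA arrays, and at 4.81 and 5.06 in the untreated arrays, in neither of which it was detected. Other detected genes of the list were highest in other arrays. Htr1a was highest in untreated replicate 1, at 8.17, and Htr1d in DHA replicate 1, at 7.46. Hoxb3 was highest in untreated replicate 3, at 5.32, and was at 4.86 in DHA replicate 3. The part of the listed raphe genes in the Tph2 signal was not tested.

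Some groups of neighbouring cells also had their top in DHA replicate 3, and others did not. That array held the highest value of 14.4% of all tested probes. Of noradrenergic markers 0 of 2 detected genes were highest there, and Dbh and Phox2a were detected nowhere. Of histaminergic markers 0 of 5 were, although these neurons also use Slc18a2 and Maob. Hdc, which makes histamine, was at 12.06 to 12.31 in the DHA arrays, lowest in DHA replicate 3, and at 12.15 and 12.51 in the untreated arrays. The hypothalamic dopamine neuron list had 0 of 5 detected genes other than Th, Ddc, Slc18a2 and Slc6a3 highest there. Of anterior pituitary genes 4 of 7 were, with Tshb, the beta chain of thyrotropin, at 9.60, 6.81, 9.91, 4.71 and 4.70 in DHA replicates 1 to 5, against 4.40 and 6.81 in untreated replicates 1 and 3. Tshb was thus also high in DHA replicate 1, where Slc6a3 and Tph2 were low. Lhb, 1 of the 4, was detected in DHA replicate 3 alone, so it was counted only through that array. The 14.4% covers probes detected in at least 2 arrays. The mean log2 signal of the pituitary list was 6.05 to 7.85 in the DHA arrays, highest in DHA replicate 3. In the untreated arrays it was 6.05 and 6.46. Of meningeal genes 6 of 15 were highest in DHA replicate 3. Their list sum was 21549 to 33687 in the DHA arrays, with DHA replicate 3 at the top, and 15219 and 7335 in the untreated arrays. The part of any of these in the monoamine signals was not tested.

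**Figure D4:**
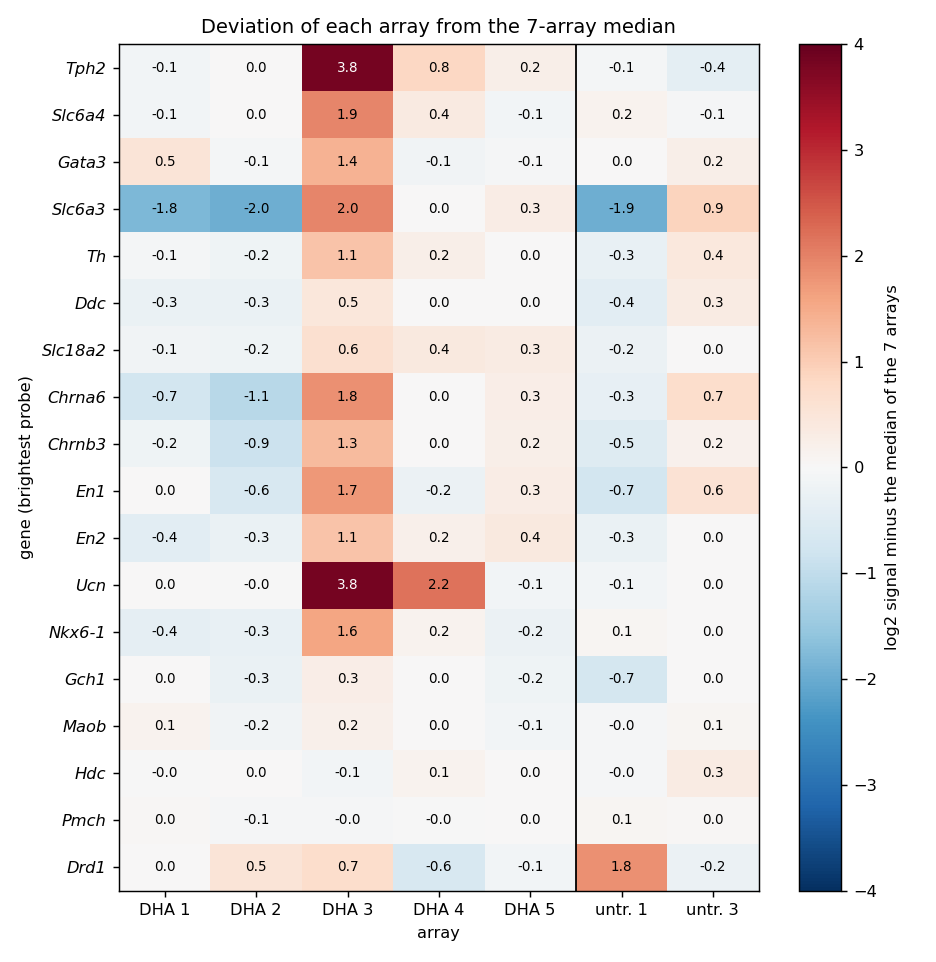
Log2 normalized signal of the brightest probe of each gene minus its median over the 7 arrays (colour and printed value), for DHA replicates 1 to 5 and untreated replicates 1 and 3. Tph2, Slc6a4, Slc6a3, Chrna6, En1 and Ucn are raised in DHA replicate 3, Slc6a3 is also lowered in DHA replicates 1 and 2 and untreated replicate 1, and Hdc and Pmch are nearly level.

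The wider monoamine pathways did not pass the test either. Of all tested probes, 0% passed it and 47% were higher with DHA. In the list of cofactor and amine synthesis, 0 of 9 tested genes had a limma adjusted p under 0.05, with 4 higher and 5 lower with DHA. Pcbd1, a recycling enzyme of tetrahydrobiopterin, was at 9.17 to 9.33 in the DHA arrays and at 9.26 and 9.93 in the untreated arrays, a difference of -0.32 log2 (SE 0.17, limma adjusted p 0.541). Spr, which completes tetrahydrobiopterin synthesis, was at 9.36 to 9.55 in the DHA arrays and at 9.59 and 9.63 in the untreated arrays, without overlap, a difference of -0.16 (limma adjusted p 0.569). Tph1, the tryptophan hydroxylase of peripheral tissues and pineal gland, was detected in no array.

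Transport and breakdown genes gave 0 of 6 past the threshold, with 3 higher and 3 lower. Sult1a1, a sulfotransferase of phenols and monoamines, came nearest at 10.72 to 11.06 in the DHA arrays and 10.18 and 10.11 in the untreated arrays, a difference of 0.74 log2 (SE 0.12, limma adjusted p 0.117). The probe of Maoa, the other monoamine oxidase, was detected in no array. Of serotonin receptors, 0 of 9 passed, with 5 higher and 4 lower and a median difference of 0.04 log2. Htr2b and Htr6, both higher, were detected in neither untreated array and were tested through DHA arrays alone. Of adrenergic receptors, the single tested gene, Adra2c, was lower with DHA and did not pass (limma adjusted p 0.661).

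Dopamine receptor and signalling genes gave 0 of 8 past the threshold, with 3 higher and 5 lower and a median difference of -0.32 log2. Rgs9, a striatal regulator of dopamine signalling, was at 10.24 to 10.36 in the DHA arrays and at 11.19 and 10.53 in the untreated arrays, a difference of -0.57 (SE 0.16, limma adjusted p 0.332). Drd1 was at 6.32 to 7.66 in the DHA arrays and at 8.79 and 6.73 in the untreated arrays, and Drd2 at 7.08 to 7.62 in the DHA arrays and at 8.10 and 7.39 in the untreated arrays. Untreated replicate 1, the highest array for both receptors, also had the highest mean log2 signal of the striatal neuron list, 9.60, where the DHA arrays had 8.73 to 8.85 and untreated replicate 3 had 8.85. The part of striatal RNA in these differences was not tested.

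Transcription factors of monoamine neurons gave 0 of 10 past the threshold, with 8 higher and 2 lower with DHA, where 47% of all tested probes were higher. Of the 8, En2 and Gata3 were detected in neither untreated array and were tested through DHA arrays alone. The filter thus fixed part of this count, and nothing is read from it against the 47%. Of the 10 detected, 9 were highest in DHA replicate 3, where 14.4% of all tested probes were. Lmx1a, highest in DHA replicate 4 on its brightest probe, was the exception, and its other probes were detected in at most 1 array. En1 and Nr4a2 are also in the midbrain list, and Gata2, Gata3 and En2 in the raphe list, so these lists are not separate. The count of 8 was not taken without DHA replicate 3. Foxa1, a forkhead factor of midbrain dopamine neurons, was at 6.64 to 7.68 in the DHA arrays and at 6.53 and 7.13 in the untreated arrays, a difference of 0.37 log2 (SE 0.28, limma adjusted p 0.677). Nr4a2, which encodes Nurr1, was at 5.59 to 6.77 in the DHA arrays and at 6.23 and 6.12 in the untreated arrays, a difference of -0.02 (limma adjusted p 0.986).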

How the data were processed

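RNA from hypothalamus was hybridised, biotin-labelled, to Illumina bead arrays, 1 per sample. Per the file headers, the deposited unnormalized table pairs each probe's intensity with its detection p-value in every array; the intensity is linear, with array minima of 117 to 124, so no background had been subtracted. The authors' normalized intensity table was deposited too and served as an alternative; DHA replicate 5 has the same values in both tables (largest difference 0). According to the submitters' processing notes, lumi 2.10.0 was used with R 2.15.0, without the name of a normalization. A further 2 columns of the unnormalized table, which match no sample, were not used.

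Unnormalized signals were processed in R 4.3.3 using limma 3.58.1: normexp background correction from the detection p-values (offset 16), quantile normalization and log2. The offset shrinks differences of dim probes, and quantile normalization removes differences in total signal. Probes detected (detection p under 0.05) in 2 or more arrays (15284 of 25697) were tested by lmFit and eBayes, two-sided, DHA minus untreated, with Benjamini-Hochberg adjustment over all of them and a threshold of 0.05. On simulated data with 15284 probes, 82 of 100 changes of 1 log2 and 99 of 100 of 2 log2 were recovered, with 12 false calls. The changed probes were drawn at random, and the noise was independent, without variation that probes share within an array. These shares therefore do not apply to Tph2 and Slc6a3, whose SE was 0.99 and 1.14. Of the probes, 23978 had 1 symbol, 1719 none and 0 several. The brightest probe stands for a gene in lists and counts; other probes are given for members and for Chrna6, Chrnb3, Ret, Lmx1a, Amph, Myl1, Ifit3 and Usp18. For Slc6a4 and Ucn, detected in few arrays, no fold between the diets is given.

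Named are every member and Bgn; the 5 genes with the highest Pearson's r with Tph2 and with Th among probes with an SD of at least 0.3, members left out; up to 4 genes of smallest p per pathway list; and detected marker genes. The members, lists and tests were chosen with earlier results of these data known. Samples are taken as separate mice, which no label states; otherwise the p-values cover only the spread between samples. The small number of arrays limits all precision.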

Additional observations from a re-analysis of the deposited data

Results flagged for a closer look

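Among 132 probes of the members, the listed genes and the genes most like them, 16 had a DHA array whose gap to the nearest other DHA array, divided by the range of the 5, exceeded 0.71. Chance alone flags about 1 in 20 groups, but Tph2, Slc6a4 and the genes named for their likeness to Tph2 and Th were chosen on these same arrays, so the count is not set against that rate. The ratio sets the DHA arrays against each other and leaves out the untreated arrays. Of these 16, 8 were high in DHA replicate 3. They included Tph2 with a ratio of 0.759 and Slc6a4 with 0.767, the serotonin genes described above, and the ratio was 0.733 for Nkx6-1, 0.804 for Ifit3, 0.825 for Fam126a, 0.824 for Usp18, 0.785 for the synuclein gene Sncg and 0.876 for Lhb, the beta chain of luteinizing hormone. Low in DHA replicate 3 were the histamine receptor Hrh3 (0.733), the hypothalamic factor Nkx2-1 (0.72) and the neuropeptide genes Npy (0.832) and Sst (0.745). DHA replicate 1 was low in Avp, the vasopressin precursor (0.731), and in Slc13a4 (0.756). DHA replicate 5 was high in the serotonin receptor Htr5b (0.713) and low in Kiss1 (0.735). Some of these arrays were not the extreme of all 7. Sncg, at 11.12 in DHA replicate 3, was higher in both untreated arrays (11.21 and 11.32). Sst, at 13.05 in DHA replicate 3, was lower in untreated replicate 1 (13.00). Slc13a4, at 10.07 in DHA replicate 1, was lower in both untreated arrays (9.49 and 7.39). Of the 9 member probes examined, Slc6a3 was not among those set apart, since its DHA arrays spread over their range.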

How the results depend on the processing

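No probe of the 7 tested genes passed the adjusted p under any of 128 alternatives over the 8 probes, the smallest adjusted p being 0.521, and 15 of these changed sign. The number of probes past the threshold over the whole array was 0, and 12 without background correction (11 higher with DHA), 12 on the authors' normalized values (11 higher), 1 with normexp on the signals at an offset of 50 and 52 (46 higher) with robust variances fitted to an intensity trend; the cause was not tested. Leaving out 1 array in turn gave 0 to 3 probes, the 3 without untreated replicate 3. Leaving out 1 array moved Slc6a3 between -1.18 and 1.65, Th between -0.19 and 0.53, Ddc between -0.35 and 0.39, the brighter Gch1 probe between -0.0325 and 0.67 and Maob between -0.0591 and 0.0492. The median over the 7 genes, 0.23, ran from -0.06 without untreated replicate 1 to 0.53 without untreated replicate 3, and was -0.05 without DHA replicate 3. With arrays scaled to a common median Ddc was -0.006 and Maob 0.0015, and with array weights they were -6e-04 and 0. Whether the replicate numbers pair the samples is not known. Deviations from the group means correlated at 0.003 for replicate 1 and 0.034 for replicate 3. The deviations of 2 untreated arrays mirror each other, so these values cannot decide it. With the replicate block, 0 probes passed, Maob was 0.1455, Tph2 2.09 and the median over the genes 0.47. The SE went from 1.14 to 0.27 for Slc6a3 and from 0.36 to 0.18 for Th. For Tph2 it rose from 0.99 to 1.11 and for Maob from 0.121 to 0.128. Signals of Slc6a4, Dbh and Tph2 near the background limit what can be said of them.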
